A study of Mus musculus with 9 samples.

Results

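The control tumours of this experiment were grown from the mouse melanoma line B16-F10 carrying a control short hairpin RNA. They are the 3 libraries whose titles name the control hairpin, out of 9 RNA sequencing libraries in the series. The other 6 libraries come from tumours with hairpins against Fbxo38 and were not used here. All 3 control libraries share the genotype label WT and the treatment label none, the cells were placed under the skin of C57BL/6 mice, and the tumours were taken on day 16. As a model they have limits: the melanoma cells are 1 transplanted line, and the RNA came from whole tumour tissue, so host cells and melanoma cells were measured together. In such bulk tissue, fewer cells of a type and less RNA per cell cannot be told apart. The labels do not say whether the 3 libraries, called control 1, control 2 and control 3 here, came from separate animals, so the spread between them may be partly technical.

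Melanocytes make melanin inside melanosomes, organelles related to lysosomes. Tyrosinase, the product of Tyr, carries out the first steps from tyrosine, and Dct and Tyrp1 act later in the pathway. Pmel builds the fibrils on which the pigment is laid down. The transcription factors Mitf, Sox10 and Pax3 govern this programme, and B16-F10 is known as a pigmented line. A tumour under the skin also draws in blood vessels, fibroblasts, macrophages and, to varying degrees, lymphocytes. Interferons act on both tumour and host cells and switch on antiviral genes and the genes of antigen presentation.

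Only binding sequences recognised for melanin genes or interferon response genes were searched, and those of other gene groups were not. The promoter sequences below are examples from the melanin and interferon response genes. They were read from the RefSeq promoter table (GRCm38.p6), each 5′ to 3′ on the gene's own strand. Capitals mark TCATGTG, an extended E-box of the kind Mitf is known to bind, searched on both strands in the 250 bases before the RefSeq start. The Tyrp1 window is kept short because a GENCODE M21 transcript of Tyrp1 starts further upstream and covers it.
Tyrp1, chr4:80834155-80834183 (+): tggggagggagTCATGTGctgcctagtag
Tyr, chr7:87493513-87493558 (-): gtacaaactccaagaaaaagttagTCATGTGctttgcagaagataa
Dct, chr14:118052367-118052421 (-): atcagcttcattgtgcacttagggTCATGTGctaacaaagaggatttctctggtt
Trpm1, chr7:64153669-64153723 (+): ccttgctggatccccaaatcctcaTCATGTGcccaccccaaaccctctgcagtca

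The letters TCATGTG were found in 6 of the 10 melanin genes with a promoter entry, namely these 4, Slc24a5 and Slc7a11, and in 3.72% of 27025 RefSeq genes. They were also found in 2 of 11 macrophage genes, 1 of 10 lineage regulators and 1 of 12 interferon gamma genes, and in none of the immediate early, MHC class I and type I interferon genes with an entry. The shorter CATGTG, which every TCATGTG contains, was found in 7 of the 10 and in 13.8% of all RefSeq genes. For the interferon response, the core of the interferon-stimulated response element was searched on both strands. It reads GAAA, then 2 bases of any kind, then GAAA, and a match on the opposite strand starts and ends in TTTC, as in Ifit3. Neighbouring matches overlap in Isg15 and Bst2, where the capitals run together.
Isg15, chr4:156200851-156200908 (-): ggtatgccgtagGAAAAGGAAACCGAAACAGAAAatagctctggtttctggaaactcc
Ifit3, chr19:34583383-34583440 (+): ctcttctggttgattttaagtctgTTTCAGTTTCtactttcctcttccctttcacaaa
Bst2, chr8:71537563-71537620 (-): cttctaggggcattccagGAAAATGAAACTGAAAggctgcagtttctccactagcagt
Igtp, chr11:58199498-58199555 (+): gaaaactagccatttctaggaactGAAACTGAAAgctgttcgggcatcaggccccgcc
B2m, chr2:122147524-122147581 (+): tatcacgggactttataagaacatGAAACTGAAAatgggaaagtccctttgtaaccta

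This core was found in 7 of 14 genes of the type I interferon list, 10 of 12 of the interferon gamma list, 2 of 15 of the MHC class I list (B2m and H2-T23) and none of the 10 melanin genes. It was found in 3.46% of all RefSeq genes. A match describes these letters only and is not evidence of binding.

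Abundance is given on 2 scales. To compare genes, counts were divided by transcript length and scaled to a sum of 1000000 per library, and this is called the level. To compare the 3 tumours, CPM (counts per 1000000) after TMM scaling were used, since a few very abundant genes shift the level of all others. A gene was called present when its level was at least 1 in each of the 3 libraries. By this rule 12297 of 54532 entries were present (22.6%), and 89.6% of the present entries were protein coding. The median level of the present genes was 21.6, and 99 genes had a level of at least 1000 in every library. For differences between the tumours, the highest CPM was divided by the lowest among the 11143 genes with a mean of at least 50 counts, and 695 of these (6.24%) differed by over 2-fold. Library totals ran from 15429762 to 16601180 counts, so 3 counts in a library, the limit used for a gene listed at 0, correspond to 0.181 to 0.194 CPM.

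The most abundant messages were those of the mitochondrial respiratory chain, translation, glycolysis and pigment. On the level scale mt-Co1, the first subunit of cytochrome oxidase, stood at 17260 in control 1, 36449 in control 2 and 23561 in control 3. Eef1a1, a translation elongation factor, had levels of 13578, 10703 and 12741 in the same order. Eno1, the enolase of glycolysis, followed with levels of 11203, 10042 and 10772. Eno1 differed little between the tumours, whereas mt-Co1 was 2.27-fold higher in control 2 than in control 1 on the CPM scale. The 25 highest levels also held Aldoa, Pkm, Tpi1, Ldha and Pgk1 of glycolysis, the pigment genes Tyrp1, Pmel and Dct, the ferritin light chain Ftl1, the cytokine Mif, the chaperone Hsp90ab1, Eef2, the ribosomal protein genes Rplp1, Rpl8 and Rps2, the globins Hba-a1 and Hbb-bs, and the mitochondrial genes mt-Cytb, mt-Nd1, mt-Nd2 and mt-Nd4. The remaining entry, Gm23935, is a model of 57 bases annotated as a miRNA, and its level of 15014 ± 325 (SD, n = 3) rests on that short length. The 10 genes with the largest mean share of counts took 7.06% of control 1, 9.33% of control 2 and 7.96% of control 3 (8.12% ± 1.14, SD, n = 3). The share of the 13 mitochondrial protein genes was 2.10%, 4.42% and 3.19%, and that of 83 ribosomal protein genes 4.53%, 4.21% and 4.47%.

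Of 42 gene lists for tumour programmes and host cell types, 29 had at least 50% of their members present. The share present among protein coding genes alone was not calculated, so lists little above 50% may not stand out from it. All 6 melanocyte and tumour lists and all 11 lists of general cell programmes met this rule, against 6 of 16 host cell lists. The host lists that met it were those named for macrophages, red cells, endothelium, lymphatic endothelium, pericytes and fibroblasts. The lymphatic list passed without Lyve1 and Ccl21a, and the fibroblast list without Pdgfra, Dcn, Lum and Fap, so passing does not show these cell types.

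**Figure D1:**
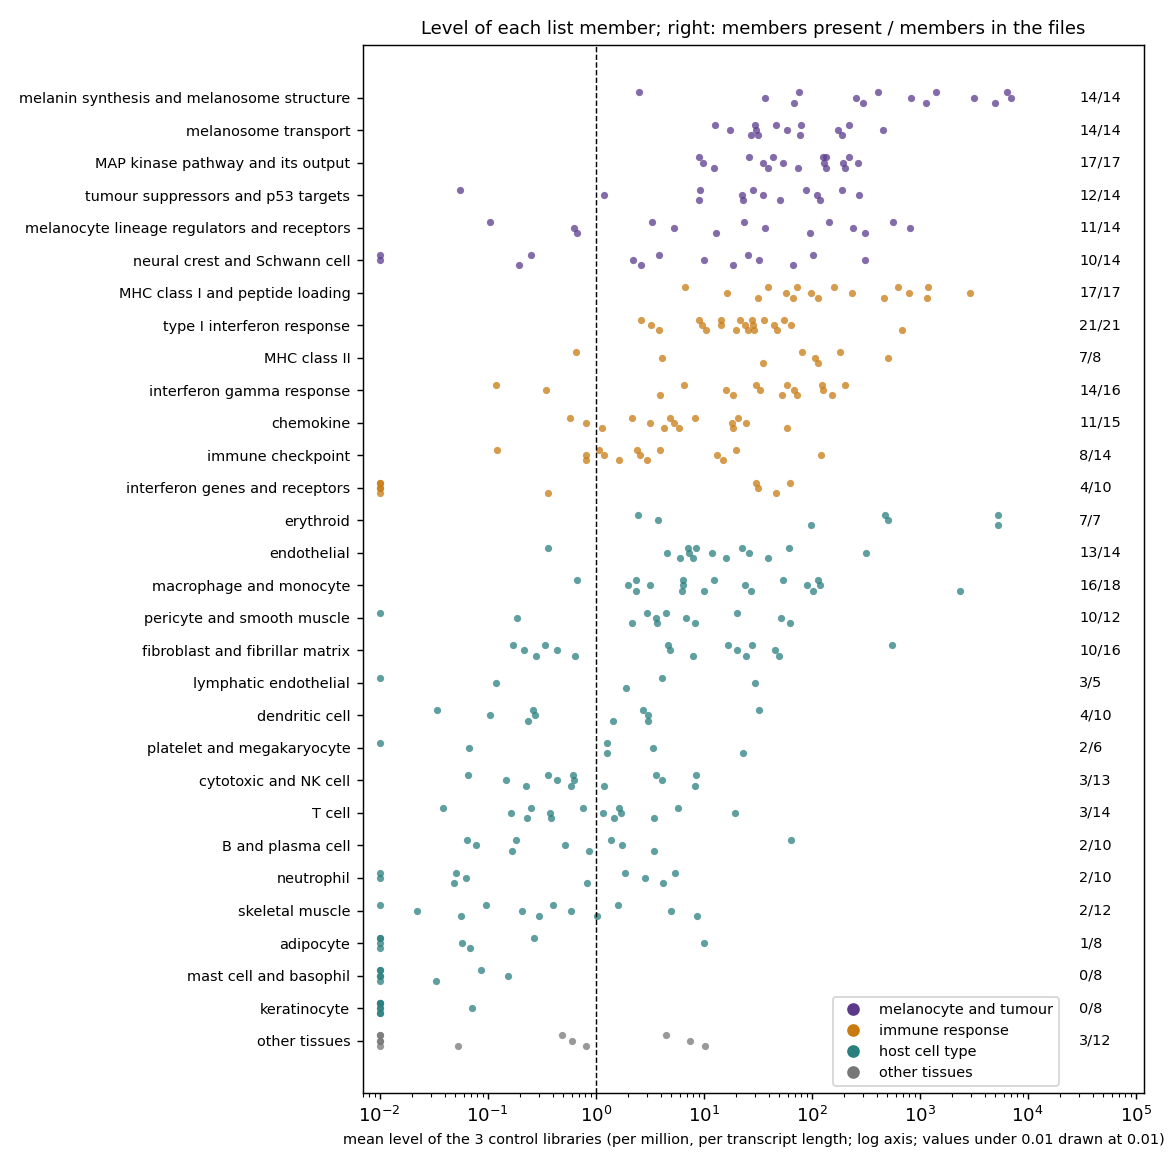
Each point is 1 gene, drawn at its mean level over the 3 control libraries (count per transcript length on a common scale, log axis, values under 0.01 drawn at 0.01), with lists in rows and the count of members present beside each row. The dashed line marks a level of 1. Tyrp1 has the highest mean level of the melanin genes, 7092, while 7 of 8 keratinocyte and 5 of 8 mast cell genes had no count in any library and stand at the left edge.

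All 14 genes of melanin synthesis and melanosome structure were present, and together they took 2.73% of the counts in control 1, 3.57% in control 2 and 3.06% in control 3. Tyrp1, an enzyme of the later steps (chromosome 4, 80834123 to 80851719, plus strand, GRCm38), had levels of 6482, 8133 and 6661 in control 1, 2 and 3. Pmel, the fibril protein, stood at levels of 5354, 7723 and 6108. For both, control 2 was highest. Dct, the dopachrome tautomerase, had levels of 4679, 5012 and 5167, so its 3 tumours lay closer together. On the CPM scale Dct was also highest in control 2, at 6634, 7651 and 7459 in control 1, 2 and 3. Gpnmb, a melanosome glycoprotein also made by macrophages, reached levels of 2675, 3735 and 3204. Tyr itself was far less abundant than the genes that act after it, with levels of 229, 279 and 264. The antigen gene Mlana had a level of 1405 ± 45.3 (SD, n = 3), and the transporter gene Slc45a2, whose product supports melanosome pH, 1146 ± 75.2. Slc24a5, Trpm1, Cd63, Gpr143, Oca2 and Atp7a filled the range below these, and the lowest member was Slc7a11, the cystine transporter, with levels of 3.31, 2.63 and 1.57. On the CPM scale control 2 was the highest of the 3 tumours for 12 of the 14 genes, against 34.2% of all genes with a mean of at least 50 counts (10 of the 14 when scaled by library totals only). Control 2 also had the most mitochondrial and globin counts.

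Most regulators of the lineage were present, at lower levels than the leading pigment genes. Sox10, which activates Mitf, had levels of 987, 639 and 802 in control 1, 2 and 3. Mitf, the master regulator of melanocytes, had levels of 362, 214 and 365. Both were lowest in control 2, the tumour in which most pigment genes were highest. Met, the receptor for hepatocyte growth factor, stood at levels of 511, 641 and 535, with control 2 highest. Tbx2, Mc1r (the melanocortin receptor), Pax3, Tfap2a and Zeb2 were present in all 3 libraries. Kit, the receptor for stem cell factor, was low and uneven, with levels of 10.9, 2.57 and 2.46. Erbb3 had levels of 18.0, 6.62 and 14.5, and Ednrb, an endothelin receptor, 4.38, 2.00 and 3.60. Kit stood high in control 1 only, and these 3 receptor genes were highest there, unlike the receptor gene Met. Of the 11 list members with a mean of at least 50 counts, 6 were highest in control 1, against 36.5% of all genes. Over 2-fold differences were seen in 3 of the 11, against 6.24% of all genes. The members that were not present were Tfec, Irf4 and Lef1. Lef1, a Wnt effector, had 1, 2 and 5 counts, near the limit of 3 counts.

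**Figure D2:**
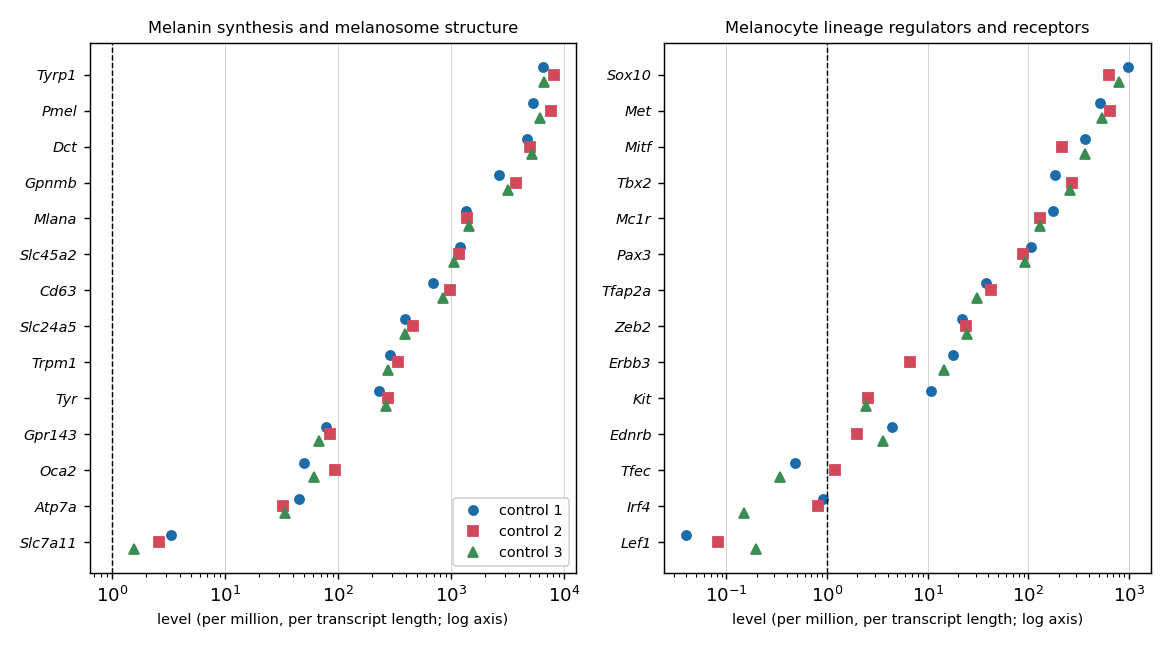
Level of each gene (count per transcript length on a common scale, log axis) in control 1, 2 and 3, for melanin and melanosome genes (left) and lineage regulators and receptors (right), ordered by mean level, with the dashed line at a level of 1. Tyrp1, Pmel and Dct lie between 4679 and 8133 in every library, and Kit shows the widest separation among present regulators.

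All 14 genes of melanosome transport were present. Rab38, which routes enzymes to melanosomes, had levels of 508, 471 and 382. Mlph and Rab27a, which couple melanosomes to the motor Myo5a, had levels of 256, 208 and 199, and of 199, 177 and 156. These genes were lowest in control 3 for 11 of 14 members on the CPM scale, against 28.0% of all genes, by less than 2-fold in each case (10 of 14 when scaled by library totals only). Of the neural crest and Schwann cell genes, 10 of 14 were present. S100a1, with levels of 204, 385 and 349, and S100b, with levels of 77.4, 124 and 105, led this list, and both were lowest in control 1. Sox2 and Foxd3, regulators of early neural crest, had no count in any library. Sox9, a crest and glial regulator, differed 4.83-fold on the CPM scale, with levels of 6.82, 3.29 and 1.39.

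Among tumour suppressors and targets of p53, 12 of 14 were present. Cdkn2a, which encodes p16 and p19Arf, had 0, 1 and 0 counts, and its neighbour Cdkn2b 8, 18 and 8. Cdkn2a was thus within the limit of 3 counts in every library, and Cdkn2b was low but above it. Trp53 had levels of 141, 98.4 and 122, and its target Cdkn1a, which encodes p21, levels of 146, 227 and 195. Trp53 was lowest and Cdkn1a highest in control 2. None of the 12 differed by over 2-fold.

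The MAP kinase pathway was present in full, with 17 of 17 genes. Mapk3 and Map2k2, which encode kinases of the cascade, had levels of 282, 261 and 258, and of 229, 209 and 226, and Dusp4, a phosphatase induced by the pathway, 206, 187 and 192. Braf had levels of 11.3, 13.1 and 12.9 and Nras 58.0, 47.4 and 58.1. These differed by at most 1.25-fold on the CPM scale. Some other genes known as transcriptional outputs of ERK lay further apart than Dusp4: Etv4 had levels of 3.85, 9.25 and 16.6, and Etv5, a related ETS factor, 26.8, 22.3 and 69.9. Spry4 and Spry2, feedback inhibitors, had levels of 6.39, 8.34 and 12.2, and of 19.1, 26.2 and 34.1. These 4 were highest in control 3, by up to 4.39-fold on the CPM scale for Etv4. Over the list 9 of 17 were highest in control 3, against 29.3% of all genes. Only 2 of the 17 differed by over 2-fold, against 6.24% of all genes.

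Genes of the cell cycle were present and nearly even. All 17 S phase genes and all 18 G2 and M phase genes were present, and none differed by over 2-fold on the CPM scale. Pcna, the replication clamp, had levels of 490, 450 and 493, and Mcm2, part of the replicative helicase, 453, 409 and 415. Top2a, a topoisomerase of dividing cells, stood at levels of 234, 220 and 242, and Mki67 at 62.3, 49.7 and 62.6. Control 3 was highest for 14 of the 18 G2 and M phase genes, against 29.3% of all genes, with a median difference between highest and lowest of 1.16-fold.

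Glycolysis took 3.81%, 3.89% and 3.88% of the counts in control 1, 2 and 3, and all 16 genes were present. The exception to their evenness was Gapdh, with 557, 9569 and 14157 counts, a range of 25.4-fold on the CPM scale. Aldoa, Tpi1, Pgk1 and Eno1, enzymes of the same pathway, differed by at most 1.22-fold. Exons of Gapdh overlap those of Iffo1 in GENCODE M21. Wide gaps were also seen in Gm10123, a processed pseudogene, which had 10965, 10104 and 3261 counts, and Rps27, a ribosomal protein gene, 1864, 505 and 1511. Gapdh, Rps27 and Gm10123 are reported as uncertain, since reads may be shared with close copies. Hypoxia genes were all present, 12 of 12, with Car9, a carbonic anhydrase induced by low oxygen, at levels of 335, 295 and 249. Adm and Ndrg1 were over 2-fold apart and highest in control 2 (2 of 12, against 6.24% of all genes). Without control 2 no hypoxia gene was over 2-fold apart (1.81% of all genes), while between control 2 and control 3, 2 were. The 18 nuclear genes of oxidative phosphorylation were present and differed by a median of 1.12-fold. Of 11 mitochondrial genes with a mean of at least 50 counts, 6 differed by over 2-fold, against 6.24% of all genes. Without control 1 only 1 of the mitochondrial genes did, against 3.17% of all genes. Without control 2 and without control 3, 4 did (1.81% and 4.58% of all genes). The 22 ribosomal protein genes of the list differed by a median of 1.09-fold.

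Lysosome, endoplasmic reticulum stress and heat shock genes were present in full. Psap, the precursor of lysosomal activator proteins, and Ctsd, a cathepsin, had levels of 816, 1048 and 784, and of 809, 1098 and 799. Hspa8, the constitutive heat shock protein, had levels of 3389, 2350 and 3048. Hsph1, an inducible chaperone, stood at levels of 257, 111 and 113, so control 1 was apart from the other tumours. Of the 10 heat shock genes, 7 were highest in control 1, against 36.5% of all genes. Over 2-fold differences were seen in 4 of the 10, against 6.24% of all genes. Without control 1, 3 still differed by over 2-fold (3.17% of all genes). Atf3 and Ddit3, transcription factors of the stress response, were highest in control 2, by 3.59-fold and 2.47-fold over the lowest tumour on the CPM scale, and without control 2 no gene of that list differed by over 2-fold.

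Blood vessel genes were present. Of 14 endothelial genes 13 were present, and none of the 13 with a mean of at least 50 counts differed by over 2-fold. Their median difference was 1.30-fold, where that of all genes was 1.24-fold, and 9 of 13 were highest in control 2 against 34.2% of all genes. Eng, a co-receptor for TGF-beta that is not limited to endothelium, had levels of 307, 315 and 324. Cdh5 and Pecam1, which join endothelial cells, had levels of 27.2, 28.9 and 23.5, and of 24.3, 21.1 and 22.1. Only Tek was not present, with 21, 1 and 13 counts. Among lymphatic genes Pdpn, Flt4 and Prox1 were present, and all 3 are also known outside lymphatics. Lyve1 had 0, 6 and 1 counts and Ccl21a none, so the list passed without these defining markers.

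Pericyte and smooth muscle genes were present for 10 of 12. Acta2, smooth muscle actin, had levels of 40.5, 77.4 and 39.4, and the pericyte gene Rgs5 13.2, 24.1 and 23.7. Mcam, also made by melanoma cells, was the highest of the list at levels of 82.8, 59.5 and 45.4. Of 16 fibroblast and matrix genes 10 were present, led by Sparc at levels of 547, 639 and 464. Col1a1, the main chain of fibrillar collagen, had levels of 39.5, 80.1 and 29.6. Control 2 was highest for all 10 genes with a mean of at least 50 counts (34.2% of all genes), and 5 differed by over 2-fold (6.24% of all genes). Without control 2 none did (1.81% of all genes), and without control 3 there were 3 (4.58% of all genes). Between control 2 and control 3 there were 4, where 3.17% of all genes differed without control 1. The markers that define fibroblasts were not present: Pdgfra had 11, 13 and 6 counts, Dcn 4, 26 and 12, Lum 0, 7 and 7, and Fap 3, 3 and 4. Sparc and several collagens can be made by melanoma cells, so these genes do not locate the source.

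Red cell genes were all present, 7 of the 7 found. Hbb-bs, a beta globin, had levels of 4376, 7950 and 3729, and Hba-a1, an alpha globin, 4049, 7491 and 4583. Both chains were highest in control 2, and the globins took 0.251%, 0.481% and 0.256% of the counts. Alas2, the heme synthesis enzyme of red cell precursors, was also highest in control 2, with levels of 68.3, 134 and 92.6. Slc4a1, the anion exchanger of the red cell membrane, was highest in control 3 instead, with levels of 1.96, 3.79 and 5.62.

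Macrophages were the leading immune cell by number of markers, with 16 of 18 genes present, and this list separated control 2 from the other two tumours. C1qa, a subunit of complement C1q, had levels of 84.1, 193 and 79.0 in control 1, 2 and 3. Lyz2, lysozyme, had levels of 91.6, 157 and 59.9. Cd68, a lysosomal glycoprotein of macrophages, stood at levels of 35.5, 92.4 and 36.7. In each of these control 2 was highest, and control 1 and control 3 lay closer to each other. Csf1r, the receptor for the macrophage growth factor, had levels of 7.96, 16.7 and 5.77, and Adgre1, which encodes F4/80, 4.38, 11.1 and 3.94. Arg1, an arginase induced in tumour macrophages, had levels of 17.3, 48.5 and 6.31, and Cd14, a receptor for bacterial lipopolysaccharide, 3.65, 31.3 and 2.80. Apoe, at levels of 2115, 2406 and 2555, was the exception in both level and order. Of the 16 genes with a mean of at least 50 counts, 15 differed by over 2-fold between the highest and the lowest tumour on the CPM scale, where 6.24% of all such genes did. Control 2 was highest in 15 of 16, against 34.2% of all genes. Without control 2 only 1 gene of the list differed by over 2-fold (1.81% of all genes). Between control 2 and control 3, 15 did, where 3.17% of all genes differed without control 1. Ly6c2 and Ccr2, monocyte genes, were not present by the rule, with 15, 85 and 7 counts and 35, 30 and 13 counts.

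The immediate early genes, whose transcription starts within minutes of a stimulus or of handling of tissue, also differed between the tumours. All 12 were present, and 8 of the 11 with a mean of at least 50 counts differed by over 2-fold, against 6.24% of all genes. Fos had levels of 16.9, 139 and 49.7, and Fosb 1.47, 19.5 and 4.47. Jun, which pairs with Fos in AP-1, had levels of 33.6, 139 and 44.5, and Egr1, a zinc finger factor, 1.86, 10.5 and 3.84. For these 4 control 2 was highest, control 3 lay between and control 1 was lowest, and over the list control 1 was lowest for 9 of 11, against 37.3% of all genes. Nr4a1, a nuclear receptor, was highest in control 3 instead, with levels of 98.4, 170 and 200. Myc differed from the rest, with levels of 76.7, 56.1 and 76.5. Without control 2, 4 of these genes still differed by over 2-fold (1.81% of all genes), and without control 1, 5 did (3.17% of all genes).

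**Figure D3:**
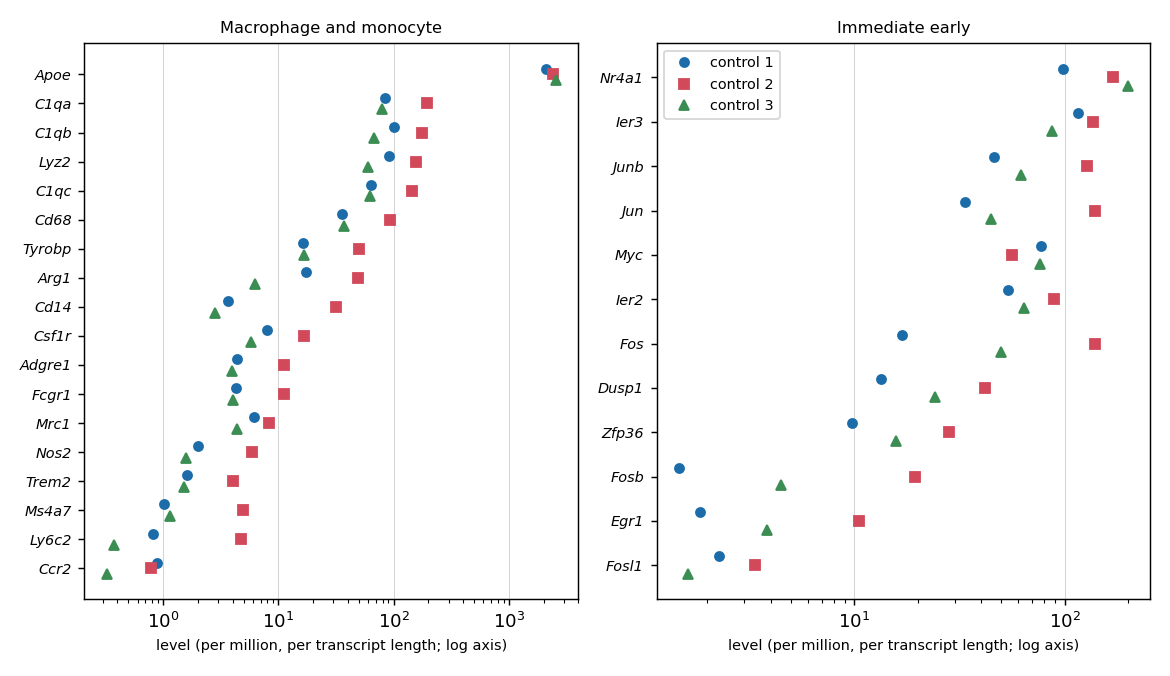
Level of each macrophage and monocyte gene (left) and each immediate early gene (right) in control 1, 2 and 3 (count per transcript length on a common scale, log axis), ordered by mean level. Control 2 stands to the right of the other tumours for most genes of both panels, and for Fos, Fosb, Jun and Egr1 control 3 lies between control 2 and control 1.

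Of 14 T cell genes 3 were present, Thy1, Lck and Trbc2, a share of 21.4%. Of all entries 22.6% were present, but these include pseudogenes and noncoding models, and 33197 had no count in any control library. That share is therefore not a like background for a list of mostly protein coding genes. Lck, a kinase of T cell receptor signalling, had levels of 6.09, 6.17 and 4.99. The defining genes Cd3e, with 4, 12 and 4 counts, Cd8a, with 23, 61 and 21, Cd4, with 1, 12 and 3, and Foxp3, with 2, 1 and 0, were all below the rule for a present gene, and each but Foxp3 had its highest count in control 2. The summed level of the list was 27.0 in control 1, 57.9 in control 2 and 26.2 in control 3. Of the 13 cytotoxic and NK cell genes Ccl5, Gzmb and Prf1 were present, and Gzmb, a granzyme, had 36, 185 and 23 counts. Ncr1, which marks NK cells, had 1, 1 and 0 counts. In these lists control 2 had the highest sums, as in the macrophage list. Of 10 B and plasma cell genes Ighm and Sdc1 were present, and Sdc1 is known in many epithelial and tumour cells. Ms4a1 had 1, 3 and 0 counts.

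Other leukocyte lists had under 50% of their members present, where 22.6% of all entries, pseudogenes and noncoding models included, were present. Of 10 neutrophil genes S100a9 and Il1b were present, while Ly6g and Mpo had no count in any library. S100a8, a calcium-binding protein of neutrophils, had 9, 18 and 2 counts. Of 10 dendritic cell genes 4 were present, namely Itgax, Batf3, Zbtb46 and Fscn1, while Xcr1 had 4, 14 and 6 counts, Flt3 6, 11 and 5 and Clec9a 13, 1 and 2. No mast cell or basophil gene was present. Of 6 platelet genes Pf4 and Ppbp were present, with 65, 165 and 48 counts for Pf4, the platelet factor, and 8, 53 and 13 for Ppbp.

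Lists for tissue that a dissection could carry along also had under 50% of their members present. The 8 keratinocyte genes had 3 counts in all, every one of them for Krt10. The 8 adipocyte genes included Fabp4, at levels of 9.54, 11.6 and 9.15, which endothelium also makes, while Plin1, Lep, Cfd and Retn had no count and Adipoq had 0, 7 and 0. For skeletal muscle, Mylpf, a myosin light chain, had levels of 11.1, 4.49 and 10.3 and Acta1 6.07, 1.45 and 7.44, both lowest in control 2. The remaining 10 muscle genes were not present. Among 12 genes of liver, pancreas, kidney, lung, brain and heart, 3 were present. Gfap, an intermediate filament of glia, was the highest of these, at levels of 16.3, 10.6 and 4.28, and Alb had 26, 1 and 7 counts. No count was recorded for the Y-linked genes Ddx3y, Kdm5d, Uty and Eif2s3y, and Xist had 96, 178 and 83 counts.

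Antigen presentation by MHC class I was present in full, with 17 of 17 genes. B2m, the light chain shared by all class I molecules, had levels of 2912, 3419 and 2393 in control 1, 2 and 3. H2-D1, a class I heavy chain, had levels of 1147, 1362 and 1016, and H2-K1 785, 1044 and 578. Each was highest in control 2 and lowest in control 3. Control 3 was lowest for 15 of the 17 on the CPM scale, where 28.0% of all genes were lowest in control 3 (13 of the 17 when scaled by library totals only). Psmb8, an immunoproteasome subunit, had levels of 135, 104 and 58.9, so its order put control 1 first. Nlrc5, the transactivator of class I genes, had levels of 21.8, 15.6 and 11.9. The class I heavy chain genes are close copies, so their counts may be exchanged among them. MHC class II genes were present for 7 of 8, led by Cd74, the invariant chain, at levels of 522, 655 and 348. H2-Aa had levels of 85.7, 98.5 and 57.5, and 6 of 7 class II genes were lowest in control 3, against 28.0% of all genes.

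Genes of the interferon response were present, while the interferon genes themselves were not detected or nearly so. Ifna2, Ifna4, Ifnb1, Ifnl2 and Ifnl3 had no count in any library, which allows up to 3 counts in each, and Ifng had 0, 3 and 6 counts. The receptor genes Ifnar1, Ifnar2, Ifngr1 and Ifngr2 were present, Ifnar1 at levels of 89.0, 47.2 and 51.7. All 21 genes of the type I response were present, led by Bst2, tetherin, at levels of 608, 921 and 553. Isg15, a ubiquitin-like modifier, had levels of 47.0, 90.7 and 55.8, and Ifit3, which binds viral RNA complexes, 40.1, 82.9 and 42.4. Irf7, the factor that amplifies interferon production, had levels of 9.20, 24.2 and 10.3. Of the 20 genes with a mean of at least 50 counts, 19 were highest in control 2 (34.2% of all genes), 15 were lowest in control 3 (28.0% of all genes) and 9 differed by over 2-fold (6.24% of all genes). Without control 2 none did (1.81% of all genes), and without control 3 there were 4 (4.58% of all genes). Between control 2 and control 3 there were 8, where 3.17% of all genes differed without control 1. Of 16 interferon gamma genes 14 were present. Igtp, an immunity-related GTPase, had levels of 176, 281 and 149, and Irgm1, another, 146, 198 and 122. Irf1, a transcription factor of the response, had levels of 98.8, 174 and 112. All 14 were highest in control 2, against 34.2% of all genes, and 2, Iigp1 and Tgtp1, differed by over 2-fold, where 6.24% of all genes did. Without control 2 none of them did (1.81% of all genes), and without control 1 or without control 3, 1 did (3.17% and 4.58% of all genes). Cxcl11 and Ido1 were not present, Ido1 with 0, 4 and 0 counts. Isg15, Ifit3, Bst2, Igtp and B2m, whose promoters are printed above, were each highest in control 2 on the CPM scale, against 34.2% of all genes. Irf7 and Irf1, which had no match in the window searched, were highest there too.

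Of 14 checkpoint genes 8 were present. Sirpa, the receptor for Cd47, was highest, at levels of 131, 119 and 118, and Cd47 had levels of 21.4, 20.7 and 17.1. Cd274, which encodes PD-L1, had levels of 14.0, 18.5 and 7.25, with control 3 lowest. Tnfrsf9, which encodes 4-1BB, had levels of 12.4, 26.6 and 6.10. With Vsir, these were the 3 of 5 checkpoint genes with a mean of at least 50 counts that differed by over 2-fold, against 6.24% of all genes. Without control 2 none of the 5 did (1.81% of all genes), and without control 3 only 1 did (4.58% of all genes). Between control 2 and control 3 all 3 did, where 3.17% of all genes differed without control 1. The T cell genes were lower: Pdcd1, which encodes PD-1, had 10, 75 and 8 counts, Ctla4 4, 23 and 5, and Icos 0, 7 and 1. Cd80, Cd86 and Pdcd1lg2, ligands of CTLA-4 or PD-1, were not present either, with 11, 38 and 3 counts, 20, 34 and 7 counts, and 5, 25 and 8 counts. Tigit passed the rule narrowly, at levels of 1.59, 1.79 and 1.56. Lag3 and Havcr2 passed the rule at levels of 2.19, 5.39 and 1.36, and of 2.58, 3.41 and 1.74. Among 15 chemokine genes 11 were present. Cxcl10 and Cxcl9, induced by interferon, had levels of 55.9, 74.0 and 45.7, and of 15.7, 25.2 and 14.7. Ccl8, a monocyte attractant, had levels of 9.15, 50.1 and 14.6, and Ccl2 9.60, 33.3 and 11.9. All 7 chemokine genes with a mean of at least 50 counts were highest in control 2 (34.2% of all genes), and 4 differed by over 2-fold (6.24% of all genes). Without control 2 none of the 7 did (1.81% of all genes). Between control 2 and control 3, 4 did, where 3.17% of all genes differed without control 1.

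Among 11143 genes with a mean of at least 50 counts, the SD of the log2 ratio of CPM was 0.46 between control 1 and 2, 0.36 between control 1 and 3, and 0.38 between control 2 and 3, where counting error alone gives 0.12. The median gene differed 1.24-fold between its highest and lowest tumour, and the 90th percentile was 1.76-fold. No pair of libraries was close enough in its counts to be 1 library deposited again, which does not show that the tumours came from separate animals. The common biological coefficient of variation was 0.181. Of the 695 genes over 2-fold, 449 (4.03% of those compared) were highest in control 2, 157 (1.41%) in control 1 and 89 (0.799%) in control 3. Leaving out control 2 left 202 such genes, leaving out control 1 left 352 and leaving out control 3 left 510. A comparison of 2 libraries gives fewer genes than one of 3 by construction.

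**Figure D4:**
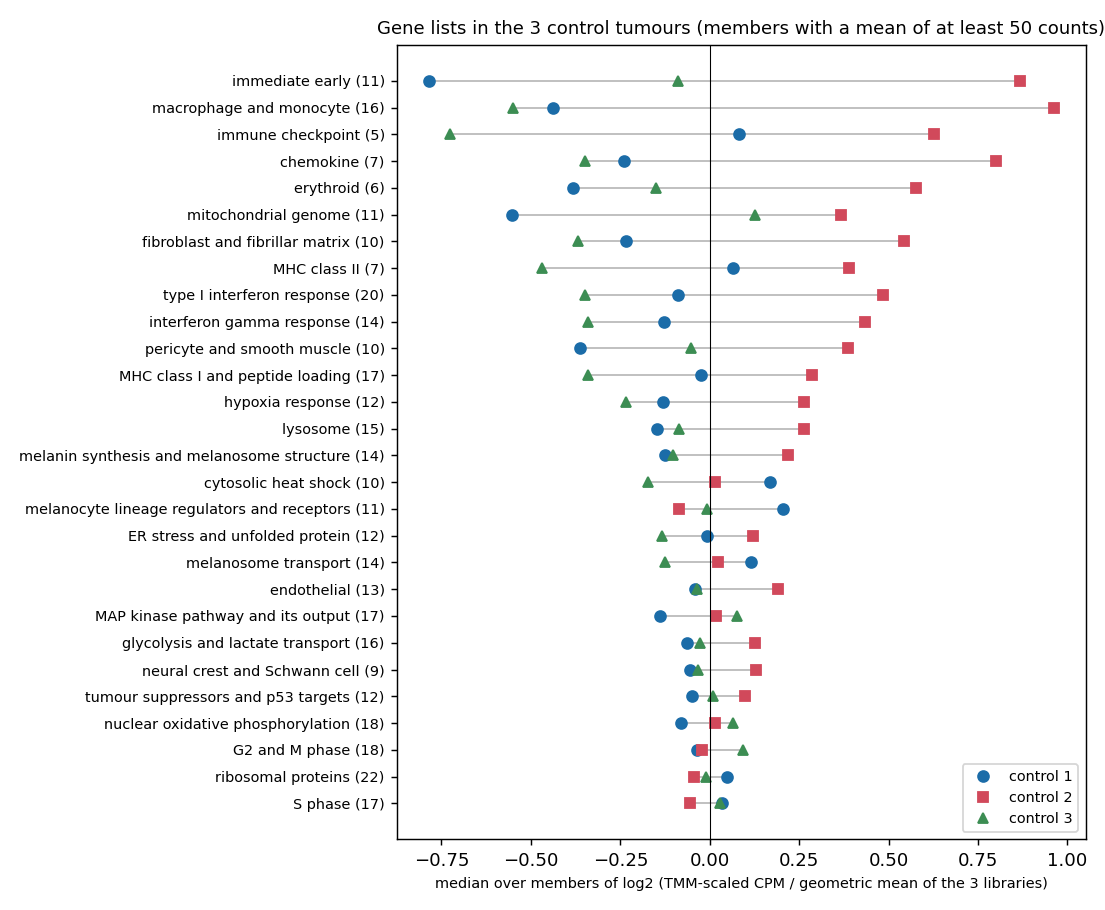
Median over list members of the log2 ratio of TMM-scaled CPM to the geometric mean of the 3 control tumours, for lists with at least 5 members of a mean of at least 50 counts (number in parentheses), ordered by range. Immediate early and macrophage genes span 1.65 and 1.51 on the log2 scale, with control 2 at the high end, and ribosomal protein and S phase genes span 0.09 each.

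Beside the lists that set control 2 apart, other measures moved too. Control 2 had the largest mitochondrial and globin shares, and genes with short transcripts stood higher in it, whereas genes with long transcripts stood higher in control 1: across 11087 genes Spearman's rho of a gene's deviation with transcript length was 0.22 in control 1, -0.17 in control 2 and -0.10 in control 3. With this length trend removed, an alternative chosen after seeing the data, 688 of 11087 genes (6.21%) differed by over 2-fold. Among them were 15 of 16 macrophage, 8 of 11 immediate early and 8 of 20 type I interferon genes. The part of transcript length, of mitochondrial share and of blood in these differences was not tested.

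The single genes with the widest range were of several kinds. Shisa2, which encodes a regulator of Wnt and FGF receptors, had 150, 3 and 17 counts, and the CPM ratio of control 1 to control 2 was 45.4 (95% exact interval 15.2 to 222, counting error only). Cck, the gene of the peptide cholecystokinin, had 941, 78 and 59 counts. Hapln1, a hyaluronan link protein, had 364, 44 and 184 counts, and B3galt5, a galactosyltransferase, 294, 34 and 74. These 4 were all highest in control 1. Il1b, the cytokine interleukin 1 beta, had 21, 119 and 10 counts, C3 of complement 50, 186 and 28, Clec4n, a myeloid lectin, 52, 118 and 16, and Loxl1, a matrix cross-linking enzyme, 34, 156 and 24. Those were highest in control 2. Among abundant genes, with a mean of at least 1000 counts, Spp1, which encodes osteopontin, had 378, 1929 and 914 counts, Cyr61, a matricellular protein gene, 647, 2205 and 797, and Mgll, a lipase, 1714, 5289 and 3283. Adam12, a metalloprotease, went the other way, with 5118, 1094 and 3556 counts, highest in control 1 and lowest in control 2. Gm28661, an unprocessed pseudogene on chromosome 1, had 748, 2742 and 957 counts, in the same order of tumours as mt-Co1. It is listed as uncertain, since reads may be shared with close copies.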

How the data were processed

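RNA from 3 control tumours was measured by bulk RNA sequencing. The authors deposited whole-number counts per gene symbol, 1 file per library. STAR 2.7.0d and Cufflinks are named in the submitters' processing notes, as are GRCh38 and hg38, which are human builds, while the files hold mouse symbols. Counter, annotation and strandedness were not given in the sources used here, so overlapping genes and near-identical copies cannot be separated. Of 543 listed symbols 541 were found, and 167 have exons that overlap another gene. Where a symbol stands on several entries, the one with more counts was used.

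Levels are counts divided by the longest GENCODE M21 transcript (GRCm38), scaled to 1000000 over the 53927 entries with a gene model. TMM scaling and the biological coefficient of variation came from edgeR 4.0.16 in R 4.3.3, tested on simulated data. Genes under a mean of 50 counts were left out of folds. There is 1 group, so no test between groups was run and no p-value is given. The libraries, lists and members were chosen with earlier results of these data known. Named genes were the 25 highest levels, the highest and most varying members of each list, members at or near 0, the most varying genes and, where useful, any member of the melanin, regulator, checkpoint, interferon gene and long noncoding lists. Other defining markers and pathway members were named after their values were seen. Alternatives covered transcript length, thresholds, scaling (DESeq2 1.42.0 size factors, library totals) and leaving out each library.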

Additional observations from a re-analysis of the deposited data

How the results depend on the processing

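Genes present numbered 11256 to 13232 and programmes present 24 to 31 of 42 over the length models, thresholds and libraries left out. With at least 75% of members required, 24 programmes were present, and the lymphatic, fibroblast, neural crest, chemokine and checkpoint lists were not. The dendritic cell and platelet lists were present with the union of exons, at a level of 0.5 and without control 1, and the checkpoint list was not with the median transcript or at a level of 2, nor the lymphatic list at a level of 2. The share of the top 10 genes was 6.85% with the mitochondrial genome left out and 7.51% to 8.67% without single libraries. Genes over 2-fold were 1978 at a mean of at least 10 counts and 121 at a mean of at least 500, and the mean SD of log2 ratios was 0.40 as reported, 0.58 and 0.29 at these minimums, where fewer or more weakly counted genes enter. Without single libraries they were 202 to 510 genes, and the biological coefficient of variation was 0.156 to 0.209. Other scalings left the count at 676 and 695. Removing the length trend, an alternative chosen after seeing the data, gave 688. No paired analysis was possible because the 3 libraries are 1 group and no test between groups was run.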

Other observations

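Further abundant genes also differed in which tumour was highest. Fth1, the ferritin heavy chain, had levels of 2370, 2574 and 2452 in control 1, 2 and 3. It lay among the 40 highest levels and differed by 1.17-fold on the CPM scale. Tmsb10, a thymosin that binds actin, was less even, with levels of 3653, 2961 and 2507. Lgals3, which encodes galectin 3, had levels of 294, 719 and 292, and Hmox1, the heme oxygenase, 243, 394 and 151. Both were highest in control 2. Car6, a secreted carbonic anhydrase, had levels of 807, 283 and 442, and Sulf2, a sulfatase of heparan sulfate, 87.6, 29.3 and 30.7. These were highest in control 1. Per1, a clock gene, had levels of 23.5, 33.6 and 57.6, highest in control 3. The nuclear noncoding RNAs Malat1 and Neat1 had levels of 15.2, 19.2 and 18.7, and of 4.30, 7.26 and 6.46. Apart from Malat1 and Neat1, these genes were chosen after their values were seen.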
